A study of Mus musculus with 6 samples.

Results

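The Zic genes encode a small family of zinc finger transcription factors, and 3 of them were followed here, Zic1, Zic2 and Zic4. They were found by name, through the Entrez gene number that forms each probe set's identifier, among 16464 probe sets with a gene symbol. Each had 1 probe set, and all 3 passed the filter on dim probe sets, which asked for at least 50 on the linear scale on 3 or more of the 6 arrays. Zic5 was not analysed here.

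RNA came from the dissected habenula of adult mice, 6 to 12 weeks old, of the BAC transgenic line Chat DW167. In this line a bacterial artificial chromosome with the choline acetyltransferase gene drives a tagged ribosomal protein, so that translating ribosome affinity purification (TRAP) pulls down ribosomes, with their messenger RNA, from cholinergic neurons of the medial habenula. The 3 IP arrays hold this RNA, and the 3 UB arrays hold the unbound cytoplasmic polysomal RNA left over from the same 3 preparations, which the labels use as total tissue RNA. Both fractions come from animals that carry the transgene, the labels name no drug treatment for any array, and UB still holds RNA of cholinergic neurons that was not captured. Levels are log2 values as deposited, errors are SD over 3 arrays, and a difference is the log2 value of IP minus that of UB, ± SE, after an offset measured on 18 biotinylated control probe sets (0.016). In such bulk RNA, fewer cells of a type and less RNA per cell cannot be told apart.

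Zic proteins bind DNA through C2H2 zinc fingers that resemble those of the Gli factors, the effectors of hedgehog signalling. In the embryo they pattern the dorsal neural tube and the midline of the forebrain, and in the brain after birth they mark cerebellar granule neurons and groups of neurons near the midline, the medial habenula among them. The genes lie as divergent neighbours, Zic1 beside Zic4 and Zic2 beside Zic5. In humans, loss of ZIC1 together with ZIC4 is associated with malformation of the cerebellum, and mutation of ZIC2 causes holoprosencephaly. In mice, Zic2 directs the axons of some retinal ganglion cells to their own side of the brain.

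The RefSeq table of mouse assembly GRCm38.p6 lists no protein-coding gene between Zic1 and Zic4, nor between Zic2 and Zic5. The 250 bases before the listed starts of Zic1 and Zic4 are shown because these neighbours, the one pair with both promoters and both levels in hand, changed by unequal amounts. The Zic1 window is chr9:91365769-91366018 on the minus strand and the Zic4 window chr9:91368722-91368971 on the plus strand, and the starts lie 3204 bases apart. RefSeq lists 2 transcripts for Zic1 and 36 for Zic4, so the Zic4 window is that of 1 start among those annotated. Both are written 5′ to 3′, with capitals for matches to the CCAAT box, the GC box GGGCGG and the E-box CACGTG.
Zic1: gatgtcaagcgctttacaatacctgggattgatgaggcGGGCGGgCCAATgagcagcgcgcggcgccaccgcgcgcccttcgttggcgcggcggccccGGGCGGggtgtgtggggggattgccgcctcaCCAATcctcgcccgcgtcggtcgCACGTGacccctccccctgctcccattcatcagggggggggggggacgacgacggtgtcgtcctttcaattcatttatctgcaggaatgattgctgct
Zic4: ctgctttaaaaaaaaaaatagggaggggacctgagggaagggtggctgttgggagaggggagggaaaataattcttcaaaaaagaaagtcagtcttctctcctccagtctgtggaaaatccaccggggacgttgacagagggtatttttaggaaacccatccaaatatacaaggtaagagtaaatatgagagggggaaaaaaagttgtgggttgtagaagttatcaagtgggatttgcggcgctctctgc
The Zic1 window held 2 matches to CCAAT, 2 to GGGCGG and 1 to CACGTG, searched on both strands, and the Zic4 window held none of the 3. Among all 32851 promoter windows of that length, 33.8% held CCAAT, 32.7% GGGCGG and 6.02% CACGTG. Neither window held TATAAA (12.4% of windows) or CCTGCTG, a core of sites bound by Zic proteins (8.44%). The Zic1 window had 27 CpG dinucleotides and a GC content of 66%, against 4 and 44.4% for Zic4 and medians of 6 and 52.4% over all windows. The arrays do not show which starts were used.

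Setting IP against UB asks which Zic transcripts were more, or less, abundant on the tagged ribosomes than in the unbound RNA of the same preparations. Zic4 was 8.75-fold higher in IP and Zic1 1.39-fold higher, while the Zic2 fractions overlapped and its difference was not called. Zic1 and Zic4 were called higher (limma, adjusted p under 0.05), and none of the 3 was called lower. Among the 8960 tested probe sets, 74.5% were called in either direction, 30.9% as higher and 43.5% as lower, so that a call alone says little about the Zic genes. The median difference over all tested probe sets was -0.17.

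**Figure D1:**
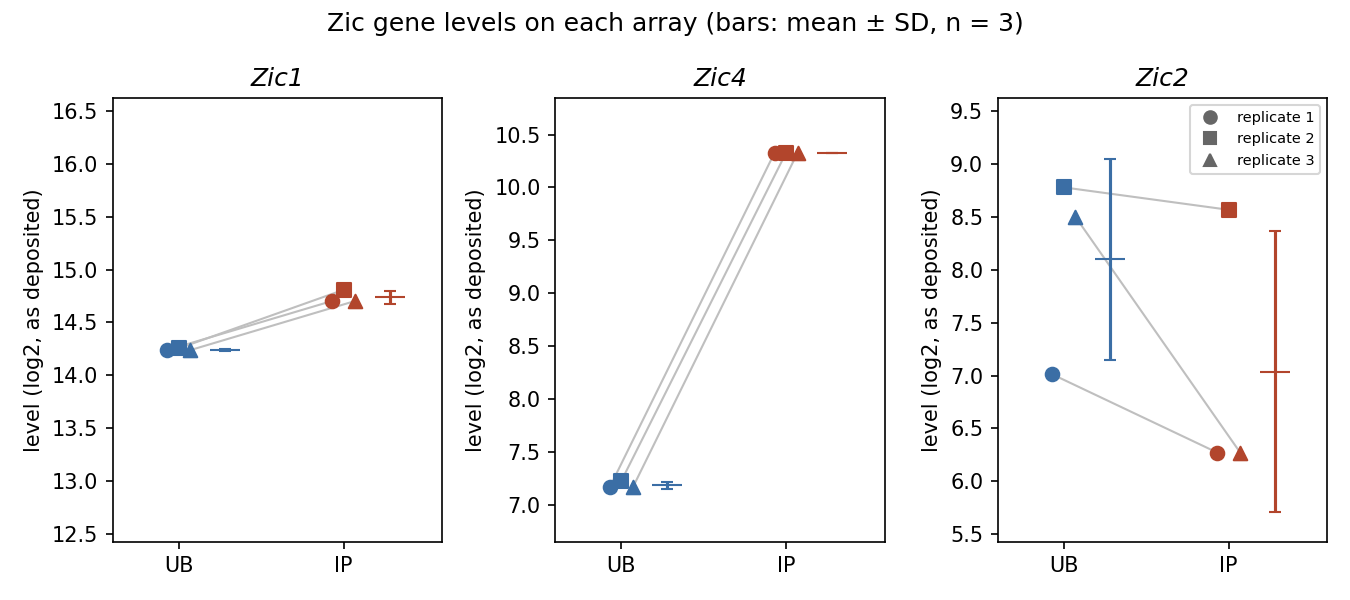
Levels of Zic1, Zic4 and Zic2 (log2 as deposited, y axes of equal length with different origins) on the 3 UB and 3 IP arrays; symbols mark the replicate, grey lines join the fractions of a preparation, and bars give mean ± SD. Zic4 steps from about 7.18 to 10.33, Zic1 from 14.24 to 14.74, and the Zic2 fractions overlap.

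Zic4 (probe set 22774_at), the less studied neighbour of Zic1, had a level of 10.33 on each of the 3 IP arrays. On the UB arrays it was at 7.16, 7.22 and 7.16 in replicates 1, 2 and 3. All IP values lay above all UB values, with a gap of 3.11 between the lowest IP and the highest UB array. The difference was 3.13 ± 0.02 (limma, adjusted p = 2.6e-08, 3 arrays per fraction). Within preparations 1, 2 and 3 it was 3.16, 3.11 and 3.17 before the offset. Only 138 of the tested probe sets, 1.54%, had a larger difference in favour of IP, and 14.3% were called and at least 2-fold higher. One value on all 3 IP arrays was common in these data, at 20% of the tested probe sets. The SE of Zic4 therefore rests on the UB arrays and on the variance shared across probe sets. It also leaves out the SE of the control offset, 0.21 over arrays. With the offset taken for each array separately, the SE of Zic4 was 0.30.

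Zic1 (22771_at), a factor of cerebellar and dorsal neural development, stood at 14.70, 14.81 and 14.70 on the IP arrays of replicates 1, 2 and 3. The UB arrays had 14.24, 14.25 and 14.24. The fractions did not overlap, with a gap of 0.45, and replicate 2 was the highest array of each. Fractions lay apart in this way, in either direction, for 80.2% of the tested probe sets, and with IP above UB for 34%. The difference of Zic1 was 0.48 ± 0.04 (limma, adjusted p = 0.000181), and within the preparations it was 0.46, 0.55 and 0.46 before the offset. Replicates 1 and 3 had equal values in each fraction, so preparations 1 and 3 are not separate measures of it. Such ties were common, with at least 2 equal values for 43.6% of the tested probe sets in each fraction. The SE of Zic1 therefore does not measure the full spread between preparations. Of the tested probe sets, 27.8% had a larger difference in favour of IP.

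The size of the Zic1 difference depended on how the fractions were put on one scale. The control offset has an SE of 0.21 over arrays, and with this offset taken for each array separately the difference of 0.48 was not called (adjusted p = 0.146). It was 0.20 with quantile normalization, 0.82 when the medians of the tested probe sets were made equal and 2.04 when those of all probe sets were, which shift every difference by 0.34 and 1.56 respectively. Without UB replicate 1 it was 0.31, and the call held (adjusted p = 0.00623). Zic4 remained higher and called under all 19 alternatives that kept its probe set, between 2.95 and 4.69.

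**Figure D2:**
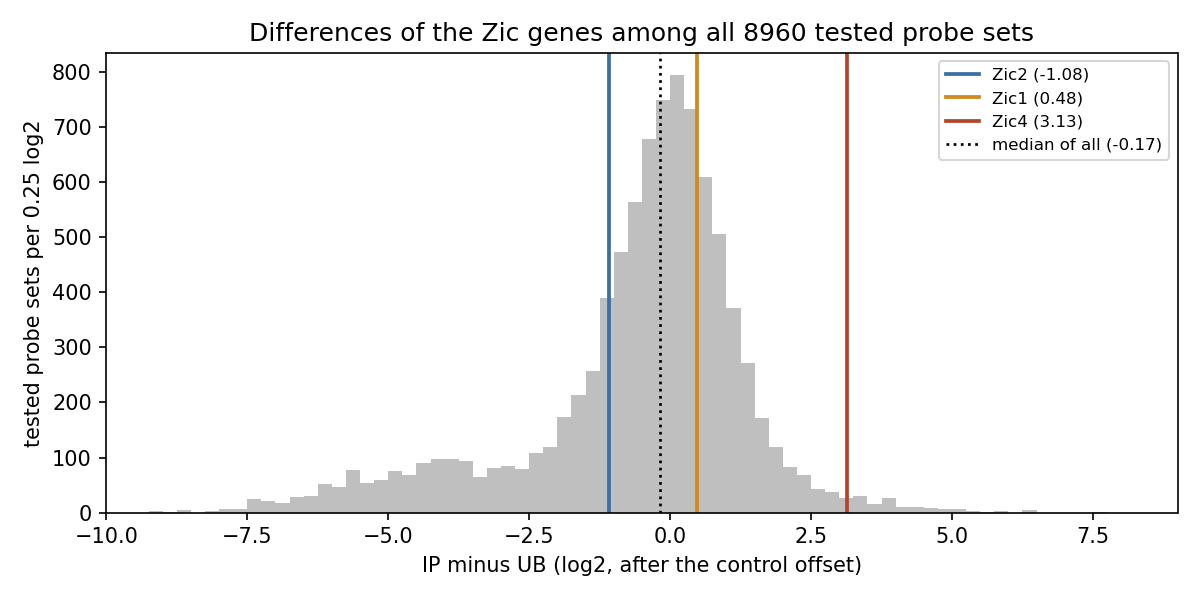
Histogram of the IP minus UB difference (log2, x axis) over all tested probe sets (count per bin, y axis), with vertical lines at Zic2 (-1.08), Zic1 (0.48), Zic4 (3.13) and the median of all (-0.17). Zic4 lies in the upper tail, and Zic1 and Zic2 in the body of the histogram.

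Zic2 (22772_at), the forebrain midline and axon guidance factor, was the variable member. The IP arrays of replicates 1, 2 and 3 had levels of 6.27, 8.57 and 6.27. The UB arrays had 7.01, 8.78 and 8.50. The fractions overlapped: IP replicate 2 was above 2 of the 3 UB arrays, and replicate 2 was the highest array of each fraction. Within every preparation IP was below UB, by 0.74, 0.21 and 2.23 on the log2 scale, a range from 1.16-fold to 4.69-fold. The difference of -1.08 ± 0.87 was not called (limma, adjusted p = 0.312).

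The spread of Zic2 stood apart from that of its relatives. Its SD was 1.33 over the IP arrays and 0.95 over the UB arrays, larger than the SD of 99.9% and 99.6% of the tested probe sets in that fraction. The SDs of Zic1 were 0.061 and 0.0095, and those of Zic4 were 0 and 0.034, against medians of 0.13 and 0.10 over all tested probe sets. Equal values on several arrays make the SDs of Zic1, and that of Zic4 in IP, small. These SDs do not measure the full spread between preparations. With the control offset taken for each array separately, Zic2 was called lower (adjusted p = 0.000801). Its difference stayed at -1.08 there, but its SE was 0.30 in place of 0.87. The difference turned to 0.48 with equal medians of all probe sets (adjusted p = 0.617).

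The preparations also differed in their marker levels. The summed linear level of 9 medial habenula markers on UB replicates 1, 2 and 3 was 10104, 17656 and 12831, in the order of the Zic2 values there. On the IP arrays it was 75772, 96721 and 100245, where Zic2 was equal in replicates 1 and 3. The sum over 8 choroid plexus and ependyma markers was 36322, 14787 and 18121 in UB, the reverse of the Zic2 order, and 2303, 3690 and 1813 in IP, highest in replicate 2. The thyroid hormone carrier gene Ttr alone made up 71.5% to 90% of that sum in UB, and Otx2, a homeobox factor on the same list, was called higher in IP (1.23, limma adjusted p = 0.000152). The UB sums of meninges, astrocyte, oligodendrocyte, microglia and endothelial markers followed the Zic2 order as well. Those of thalamic and GABAergic markers ran in reverse, and those of lateral habenula and granule neuron markers did neither. Only the order of 3 arrays is compared, which many lists can share. Across the UB arrays Zic2 ranged 3.41-fold. The sums there ran from 547 to 691 for meninges, 7863 to 9255 for astrocytes and 15574 to 17187 for oligodendrocytes. Those of microglia ran from 3125 to 3309 and those of endothelial cells from 86.7 to 209, with no endothelial gene tested. On the IP arrays Zic2 ranged 4.91-fold, and the meninges sum was 52.5 on each. The part of any of these cells in the Zic2 values was not tested.

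Comparing neighbours on the same array removes any shift that is the same for all levels of an array. The level of Zic1 minus that of Zic4 was 7.07, 7.03 and 7.07 on UB replicates 1, 2 and 3. On the IP arrays it was 4.37, 4.48 and 4.37. The value as such compares different probes and has no meaning as a ratio of transcripts, but its change does not depend on the offset. It fell by 2.65 ± 0.04 from UB to IP, a change of 6.28-fold on this scale in favour of Zic4, and the fractions did not overlap. In IP, replicates 1 and 3 were equal for each gene, so this SE does not measure the full spread between preparations. With quantile normalization, which moves levels by unequal amounts, the change was -3.32. The highest values in the table were 16.49 in IP and 16.26 in UB, and whether the Zic1 probes, at 14.24 to 14.81, still responded in proportion was not tested. An exact two-sided permutation test gave p = 0.1, the smallest p that 3 arrays against 3 allow. Within the 3 pairs the exact p was 0.25, again the smallest possible. The pair of Zic2 with Zic5 was not analysed here.

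**Figure D3:**
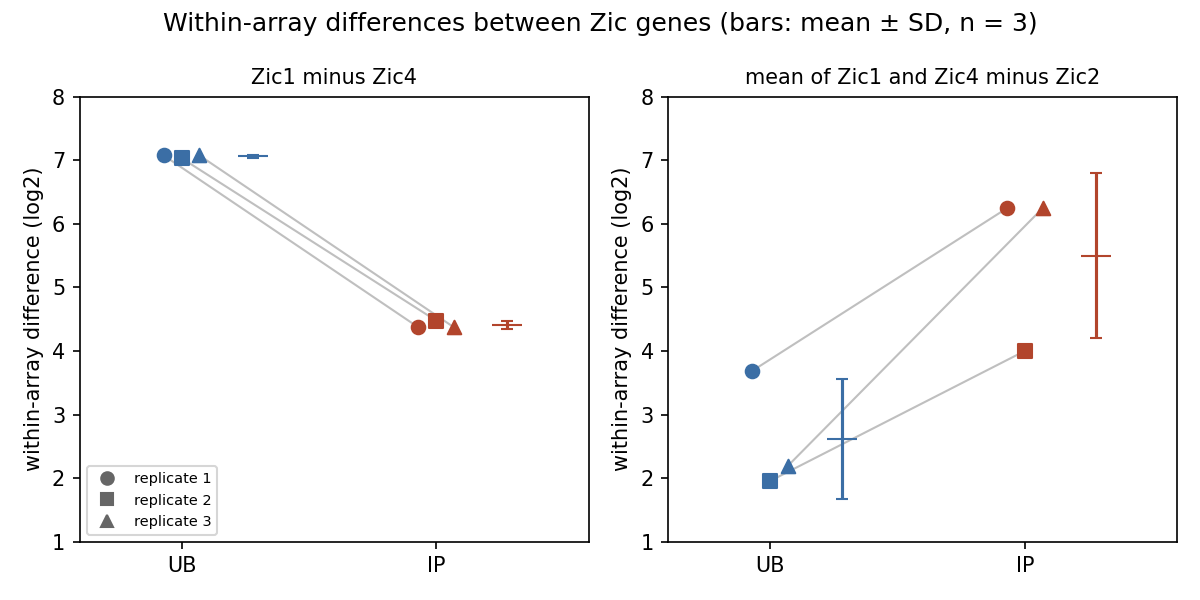
Within-array log2 differences (y axis) of Zic1 minus Zic4 and of the mean of Zic1 and Zic4 minus Zic2, for UB and IP; symbols mark the replicate, grey lines join preparations, bars give mean ± SD. The first falls from 7.06 to 4.41 with little spread, and the second rises from 2.62 to 5.50 with wide spread.

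The mean of Zic1 and Zic4 minus Zic2 was 3.69, 1.96 and 2.20 on the UB arrays. It was 6.24, 4.0 and 6.24 on the IP arrays, above all UB values. The increase was 2.88 ± 0.92 (exact permutation test, two-sided, p = 0.1). Taken singly, Zic4 rose relative to Zic2 by 4.21 ± 0.94 without overlap (exact p = 0.1). Zic1 rose relative to Zic2 by 1.56 ± 0.91, and there the fractions overlapped (exact p = 0.2). With p-values adjusted over these 4 contrasts, the first 3 had 0.133 and the last 0.2, and none could pass 0.05 at this size. In each of the 3 preparations all 4 contrasts kept their direction.

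**Figure D4:**
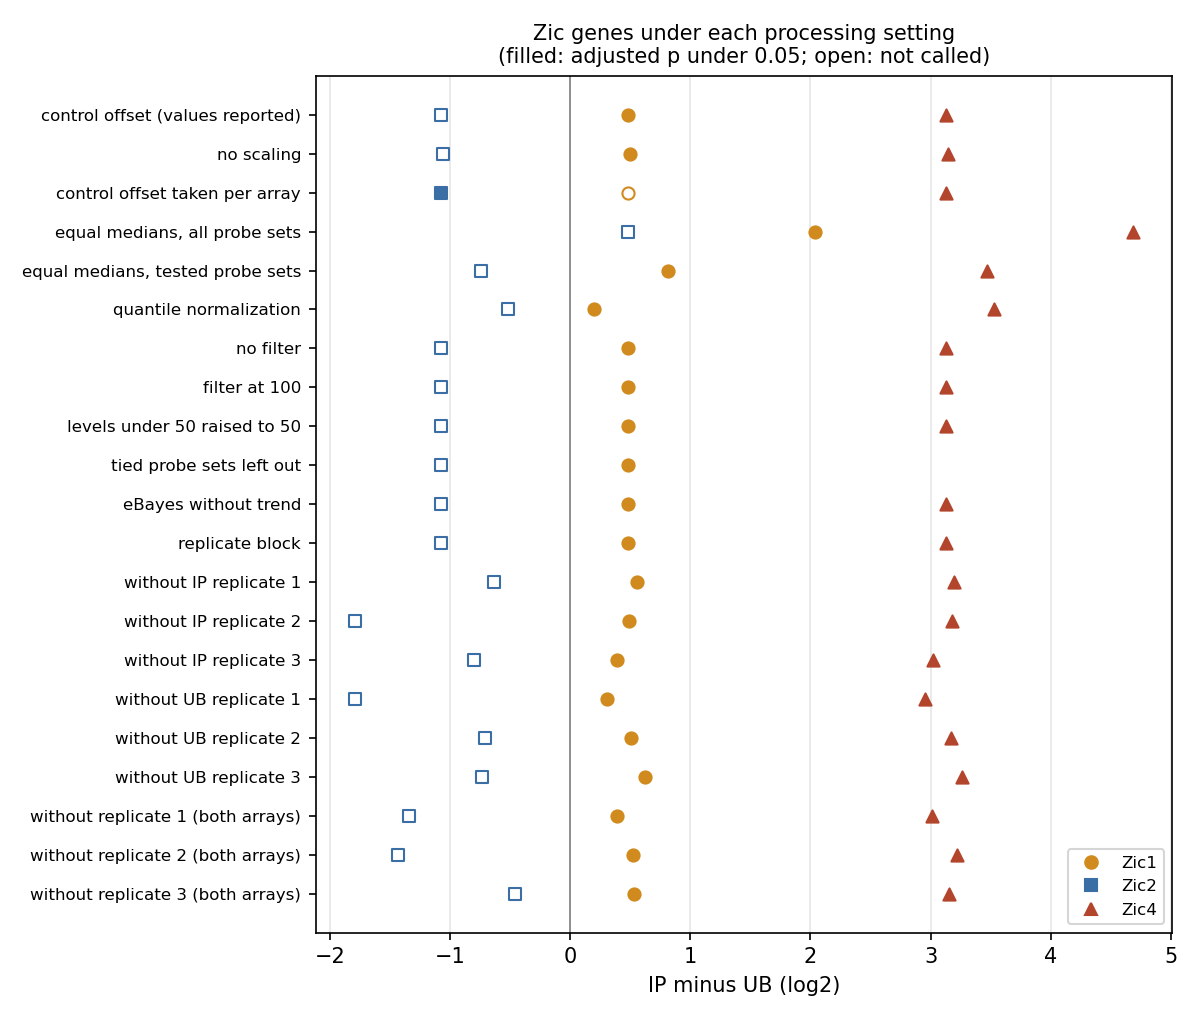
IP minus UB difference (log2, x axis) of Zic1, Zic2 and Zic4 under the values reported and each alternative (y axis); filled symbols have an adjusted p under 0.05, and Zic4 has no value where tied probe sets were left out. Zic4 lies between 2.95 and 4.69, Zic1 between 0.20 and 2.04, and Zic2 between -1.79 and 0.48.

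The tested genes whose pattern over the 6 arrays was most like that of a Zic gene were taken as the 3 with the smallest root mean square difference between log2 values centred on each gene's mean, out of 8600 genes. For Zic1 these were Bnip2, which encodes a partner of BCL2, Vps53, a subunit of a tethering complex for transport back to the Golgi, and Ppib, the isomerase cyclophilin B (0.019, 0.023 and 0.024). For Zic4 they were the sialyltransferase gene St6galnac4, 2310034G01Rik and Lsm11, which acts in histone mRNA processing (0.041, 0.041 and 0.046). The differences of these 3 genes were 3.07, 3.18 and 3.05, and their nearness to that of Zic4 follows from how they were chosen. On all UB arrays 2310034G01Rik and Lsm11 were under 50, so they passed the filter only through IP and could only rise. Lsm11 stood at 5.68 on the IP arrays, just over the filter's limit of 5.64 on the log2 scale. For Zic2 the nearest genes lay far off: the synaptic vesicle calcium sensor gene Syt1 (0.60), the endosomal GTPase gene Rab5c (0.61) and the farnesyltransferase gene Fntb (0.62). Zic1 and Zic4 themselves were 1.33 apart by this measure, and Zic1 and Zic2 1.20 apart. Values shared by several arrays of a fraction make such distances small.

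Next to the Zic pairs on their chromosomes, Plscr1, a scramblase gene beyond Zic4, was higher in IP by 1.45 (limma, adjusted p = 2.29e-06). Pcca, a mitochondrial carboxylase subunit gene directly beyond Zic2, was higher by 1.01 (adjusted p = 0.000328). Clybl, a mitochondrial lyase gene on the Zic5 side of that pair, was higher by 0.56 (adjusted p = 0.00936). Tbc1d2b, on the Zic1 side of the other pair, was too dim to be tested.

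The Gli and Glis factors, whose fingers resemble those of the Zic proteins, were dim. Of 6 listed, 5 had a probe set, and none was tested. Gli1, Gli2 and Gli3 had the lowest IP value on every IP array, and the summed linear level of the 5 was 29.6 on the IP arrays and 80.1 on the UB arrays. Hedgehog pathway genes were mostly dim as well, with 14 of 17 not tested. Hhip, a membrane protein that binds and holds back hedgehog ligands, was at least 4.55-fold higher in IP (adjusted p = 2.26e-11). It had 7.85 on each IP array and 3.77 on each UB array, so its SE and p-value rest only on the variance shared across probe sets. Being dim in UB, Hhip passed the filter only through IP and could only rise. Disp2, a relative of the ligand release protein Dispatched, was 5.96-fold lower (adjusted p = 6.98e-07). Spop, an adaptor for ubiquitination of Gli proteins, was 2.11-fold lower (adjusted p = 0.000406), but at 0.48 on the log2 scale with equal medians of all probe sets. Of the 3 tested, 1 rose and 2 fell, beside 30.9% and 43.5% of all tested probe sets, and 3 genes are too few to compare.

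Among 10 tested partners and regulators of Zic proteins, 1 rose and 7 fell, with a median difference of -0.75 against -0.17 over all tested probe sets, of which 30.9% were called higher and 43.5% lower. Mdfic, an inhibitor that holds transcription factors in the cytoplasm, was at least 8.03-fold lower in IP (adjusted p = 3.23e-05). It was under 50 on all IP arrays, so it passed the filter only through UB and could only fall. Prkdc, the catalytic subunit of the DNA-dependent protein kinase, was 3.26-fold lower (adjusted p = 2.1e-05), a call lost with equal medians of all probe sets (-0.15, adjusted p = 0.109). Kpna1, an importin that carries proteins into the nucleus, was 2.68-fold lower (adjusted p = 5.31e-09), but at 0.14 with equal medians. With that scaling 8 of the 10 were called higher and 1 lower, and with quantile normalization 1 and 5.

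Few genes described as Zic targets were bright enough to test. Of 10 with a probe set, 3 were tested, where 51.6% of the whole table was, and 2 of the 3 fell, beside 43.5% of all tested probe sets. Apoe, the lipid carrier gene that ZIC1 and ZIC2 activate in human cells, was 87.3-fold lower in IP, at 6.05 ± 0.01 against 12.49 ± 0.51 (adjusted p = 2.05e-05). Grin2c, an NMDA receptor subunit gene of maturing granule neurons, was at least 3.2-fold lower (adjusted p = 5.06e-05). Under 50 on all IP arrays, Grin2c passed the filter only through UB and could only fall. Ephb1, the axon guidance receptor gene under Zic2 control in the mouse retina, was at 7.73 ± 0.56 in IP and 8.12 on all UB arrays, and missed the threshold (-0.41 ± 0.30, adjusted p = 0.270). The Ephb1 value became 1.15 with equal medians of all probe sets. Apoe is also an astrocyte and microglia gene, and the summed level of 7 astrocyte markers was between 119 and 128 in IP and between 7863 and 9255 in UB. The part of these cells in the Apoe value was not tested.

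Transcription factors of the medial habenula give the setting for the Zic values. Of 10 tested, 8 rose and 2 fell, with a median difference of 2.39, beside 30.9% and 43.5% of all tested probe sets. Irx3 and Irx5, homeobox factors of the Iroquois group, were higher by 2.95 ± 0.32 and 2.72 ± 0.36 (adjusted p = 0.00085 and 0.00177). The nuclear receptor gene Nr4a2 was higher by 2.87 ± 0.24 (adjusted p = 0.000295), and Pou4f1, a POU factor needed for habenular identity, by 1.74 ± 0.12 (adjusted p = 0.000132). The Zic4 difference of 3.13 was near those of Irx3 and Nr4a2, and the Zic1 difference of 0.48 was under those of all 8. These differences between genes were not tested. Tcf7l2, also among the partners of Zic2, and Lhx2 were lower by 1.26 and 1.27, and both were called higher with equal medians of all probe sets.

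**Figure D5:**
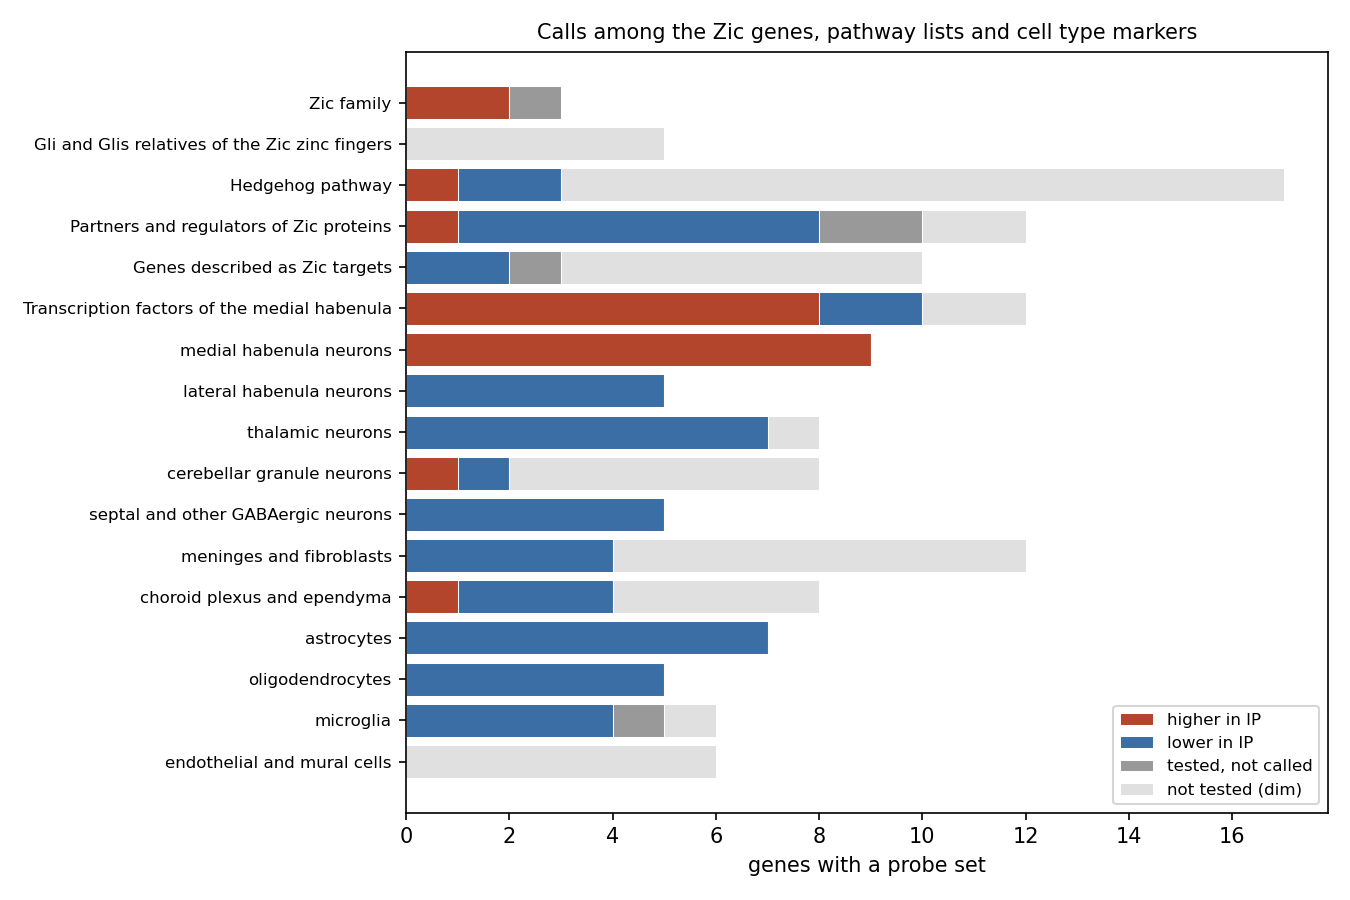
Number of genes with a probe set (x axis) in the Zic family, the pathway lists and the cell type marker lists (y axis), divided into called higher in IP, called lower, tested but not called, and not tested because dim. All 9 medial habenula markers were higher, and most markers of other cells were lower or dim.

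Markers of cells that can carry Zic transcripts were read beside these values. All 9 medial habenula markers were higher in IP, with a summed level of 75772 to 100245 in IP and 10104 to 17656 in UB. Of these, Slc18a3 and Slc5a7 were under 50 on all UB arrays, so they passed the filter only through IP and could only rise. Of 12 markers of meninges and fibroblasts, 4 were tested and all 4 fell. These 4 were under 50 on every IP array, so they passed the filter only through UB and could only fall. Among them were the decorin gene Dcn, at least 2.65-fold lower (adjusted p = 3.39e-05), and the retinoic acid synthesis gene Aldh1a2, at least 3.04-fold lower (adjusted p = 1.24e-05). The summed level of the 12 was 52.5 on each IP array and 547 to 691 on the UB arrays. Of the 12, 8 had the lowest IP value on every IP array: Col1a2, Col3a1, Lum, Foxc1, Foxd1, Slc22a6, Aldh1a2 and Islr. Of 8 cerebellar granule neuron markers, Gabra6, Barhl1, Barhl2 and Pax6 were at the lowest value of their fraction on all 6 arrays. The 2 tested ones parted, with Neurod1 6.48-fold higher (adjusted p = 6.53e-05) and Cbln1 4.34-fold lower (adjusted p = 0.000218). The sum over the 8 was 6582 to 6836 in IP and 3897 to 4049 in UB. Neurod1 alone made up 87.6% to 91% of that sum in IP and 19.6% to 29.3% in UB. All 7 tested thalamic markers, all 5 of GABAergic neurons and all 5 of the lateral habenula fell, beside 43.5% of all tested probe sets. The 5 GABAergic ones, thalamic Necab1, Rgs16 and Gbx2, and lateral habenula Vgf, Htr2c and Pcdh10 were under 50 on all IP arrays. These, too, passed the filter only through UB and could only fall. How much of the Zic level in UB came from habenular neurons and how much from other cells was not tested.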

How the data were processed

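RNA from IP and UB, 3 arrays each, had been amplified over 2 cycles from 20 ng and hybridized to Affymetrix arrays, per the labels' protocols. The deposited values are log2 levels per probe set, made by the authors with GCRMA within each group of replicates, per the submitters' processing notes and design text; its version was not stated there. The table held 17370 probe sets, 16464 with a gene symbol. The mean difference of 18 biotinylated controls was subtracted from IP, as the design text advises scaling on them. The 8960 probe sets at 50 or more on at least 3 arrays were tested with limma 3.58.1 (R 4.3.3; eBayes with trend, 0.651 prior degrees of freedom), two-sided, adjusted by Benjamini-Hochberg over all of them; without adjustment 6859 had p under 0.05. Where a fraction was under 50 on all its arrays, the fold was taken against 50 and is written "at least". Such a probe set passed the filter only through the other fraction, which fixed the direction of its difference. The fit was checked on simulated data. Contrasts between Zic genes used exact permutation over arrays. Zic2 stood alone where its mean with Zic5 had been planned, and the contrasts of Zic2 with Zic1 and with Zic4 singly were added after the data were seen.

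The labels derive each UB sample from the IP replicate of the same number, and the pairing rests on this. Deviations from the fraction means correlated within numbers (0.59, 0.48 and 0.28). Across numbers, IP replicate 3 with UB replicate 2 had 0.31, and IP replicate 2 with UB replicate 3 had 0.25. The other pairs across numbers were negative. The correlations alone thus do not settle the pair of replicate 3. Nothing says whether preparations pooled animals, and 3 arrays per group limit the precision. The members and gene lists were chosen with earlier results of these data known. Named were all Zic genes, the 3 tested members of a list with the largest difference, and the 3 genes nearest in pattern. Pou4f1, Tcf7l2, Lhx2, the neighbours on the chromosomes and genes named as being at the lowest level were chosen after their values were seen. Scaling, filter, floor, ties, variance model, block and left-out arrays were varied. Promoter windows are from RefSeq (GRCm38.p6), which matched both Zic1 and Zic4. Python 3.11.15 and matplotlib 3.10.9 made tables and figures.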

Additional observations from a re-analysis of the deposited data

How the results depend on the processing

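The direction of Zic1 and Zic4 held under all alternatives run, 20 and 19 of them. Zic4 had no value where probe sets with 1 value on all arrays of a fraction were left out. With the control offset per array, Zic1 was not called (0.48, adjusted p = 0.146, range over alternatives 4.96e-07 to 0.146), and Zic2 was called lower (-1.08, adjusted p = 0.000801, range 0.000801 to 0.781). Zic2 turned to 0.48 with equal medians of all probe sets, which shift every difference by 1.56. With the offset per array, the SEs of Zic1, Zic2 and Zic4 were alike, at 0.29, 0.30 and 0.30. In the values reported they were 0.04, 0.87 and 0.02. The Zic2 call with the offset per array thus rests on an SE nearly the same for all 3 genes. With arrays left out, Zic1 ranged from 0.31 to 0.62, Zic2 from -1.79 to -0.46, Zic4 from 2.95 to 3.26, Zic1 minus Zic4 from -2.70 to -2.63 and the mean of Zic1 and Zic4 minus Zic2 from 2.30 to 3.63. Zic1 minus Zic4 changed by -3.32 with quantile normalization. The replicate block changed no call of a Zic gene (Zic1 adjusted p = 0.00222, Zic2 0.163, Zic4 5.69e-05) and left the contrasts at -2.65 and 2.88 (exact p = 0.25 for each over 3 pairs).

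Over all probe sets, 2772 were called higher and 3900 lower. With equal medians of all these were 6645 and 1583, with no filter 8557 and 5998, and without tied probe sets 2123 were lower. Left-out arrays gave 2053 to 3151 higher and 3080 to 4239 lower. Values of Zic2 rest on 1 or 2 arrays per level, and signal over background was known only through the level of 50.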
